A study of Rattus norvegicus with 6 samples.

Results

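The mRNAs of 8 genes that rat liver uses when it turns from sugar to fat as fuel were compared between rats fed a control diet (CD) and rats fed a Western diet (WD). They are Ppara and Creb3l3, which encode transcription factors of the fasting response, Fgf21, which encodes a hormone, Pdk4 and Ucp2, which encode mitochondrial proteins that steer fuel use, Acat1 and Bdh1, which encode enzymes of ketone body metabolism, and Vnn1, which encodes an enzyme of coenzyme A turnover. They were chosen by name, with earlier results of these data known, so shares set beside those of all loci below are descriptions only. The same holds for the gene lists. Each symbol was found on 1 of the 33022 loci measured, with no other locus overlapping it. The rats were obesity-prone Sprague Dawley rats of 160 to 190 g at the start, which received the CD or the WD for 2 weeks. They were then fasted overnight and refed their own diet for 1 h before the liver was sampled. Both diet groups share the fast and the refeeding, but the last meal differed. Its part cannot be told apart from that of the 2 weeks of diet. From each diet there was total RNA, RNA of the light part of a sucrose gradient (mRNAs bound to at most 3 ribosomes) and RNA of its heavy part (at least 4 ribosomes). Equal amounts of RNA from 3 rats were pooled for each combination, so each of the 6 groups is 1 library without a replicate. No test between the diets is possible from such data, and every difference below is a difference between libraries of pooled livers.

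PPARα, the product of Ppara, is a nuclear receptor that fatty acids activate, and in fasted liver it switches on fatty acid oxidation and ketogenesis. Creb3l3 encodes CREBH, a membrane-bound factor that is cut free in fasting and acts with PPARα, and both are known to drive Fgf21. In ketogenesis, mitochondrial acetyl-CoA is condensed by the thiolase ACAT1, turned in further steps into acetoacetate, and reduced by BDH1 to β-hydroxybutyrate, which the liver exports as fuel for other organs.

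Levels were deposited as FPKM, fragments per kilobase of transcript and per unit of library depth, which allows levels to be compared between genes of different length. The fragment number behind an FPKM value was inferred as the whole number that 1 factor for each library and 1 step for each gene explain, and this succeeded for 7 of the 8 genes, Ppara being the exception. From these numbers, a 95% exact interval (Clopper-Pearson for a ratio, the conditional odds ratio for a change in ribosome density) was computed for counting error only, since PCR reads are not independent molecules. Diet ratios are WD over CD, and log2 changes were computed on FPKM + 0.1. The limits of 1.5 and 0.75 used below were applied to ratios of FPKM + 0.1, and ratios are printed without that addition. The background is the 10201 named loci whose mean over the 6 libraries reached 1 FPKM, and all 8 genes are among them. The libraries held between 874948 and 2231837 inferred fragments over loci with a symbol, with a median per locus of 24 in the WD light fraction and of 9 to 15 in the others, so the WD light fraction is the most deeply sequenced. Rescaling each library to the same sum lowered the median log2 change of all loci in the light fraction from 0.02 to -0.29 and raised that of ribosome density from -0.02 to 0.28, so that small differences in the light fraction depend on the scale. The 8 hepatocyte markers were detected in every library. Of 5 adipocyte markers, Adipoq, Lep and Plin1 were at 0 in all 6 libraries, and 2, Cidec and Fabp4, were detected in every library. The adipocyte markers summed to between 24.0 and 45.9 FPKM, and their sum in WD total RNA was 1.29 times that in CD. Blood cell markers summed to 506 FPKM in the light fraction of WD and to 20.6 to 101 FPKM elsewhere, with S100a8 and S100a9 at 0 in all libraries, and their part in the light fraction results was not tested.

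The promoters of the hormone gene, of the kinase gene and of the upstream factor gene are shown because these genes had the lowest WD to CD ratios in total RNA. The sequences are the 250 bases before the start site in the RefSeq table for GRCr8, and all 8 genes but Vnn1 were matched in it. They are Fgf21 at chr1:105221377-105221626 on the minus strand, Pdk4 at chr4:34568330-34568579 on the minus strand and Creb3l3 at chr7:9273070-9273319 on the plus strand, each printed 5′ to 3′ toward the gene, with capitals at motif letters.
Fgf21: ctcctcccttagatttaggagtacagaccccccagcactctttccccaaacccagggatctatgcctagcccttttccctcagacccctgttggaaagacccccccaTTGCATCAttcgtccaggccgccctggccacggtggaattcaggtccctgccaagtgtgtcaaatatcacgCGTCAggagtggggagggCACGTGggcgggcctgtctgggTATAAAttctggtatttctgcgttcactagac
Pdk4: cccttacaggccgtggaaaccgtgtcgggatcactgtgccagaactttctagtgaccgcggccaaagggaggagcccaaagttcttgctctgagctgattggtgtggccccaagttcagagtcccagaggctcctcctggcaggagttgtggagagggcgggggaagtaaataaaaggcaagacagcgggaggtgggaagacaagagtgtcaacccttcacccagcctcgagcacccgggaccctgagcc
Creb3l3: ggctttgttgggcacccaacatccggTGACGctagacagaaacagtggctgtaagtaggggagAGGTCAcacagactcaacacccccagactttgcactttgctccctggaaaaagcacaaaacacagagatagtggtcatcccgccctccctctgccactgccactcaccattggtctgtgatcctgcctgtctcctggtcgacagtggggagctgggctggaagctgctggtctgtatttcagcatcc
The letters searched on both strands were AGGTCA and its repeat AGGTCANAGGTCA (bound by PPARα with RXR), TGACG and TGACGTCA (the core and the full cAMP response element that CREB factors bind), TGATGCAA (the amino acid response element that ATF4 binds), CACGTG (the E-box) and its spaced pair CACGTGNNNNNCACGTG (the carbohydrate response element), and TATAAA (the TATA box). The short forms lie within the longer ones. The Fgf21 window held the amino acid response element as TTGCATCA at bases -143 to -136 from the start, letters found in 0.693% of the 33469 windows of this length. It also held CGTCA at -72 to -68, CACGTG at -54 to -49 and TATAAA at -32 to -27, which were in 18.2%, 5.59% and 12.9% of windows. The Creb3l3 window held TGACG at -224 to -220 and AGGTCA at -187 to -182, the latter in 14.1% of windows. Pdk4 and the other 4 matched genes held none of these letters, and the full AGGTCANAGGTCA repeat, found in 0.0508% of windows, and TGACGTCA, found in 1.59%, were in none of the 7. No window of any gene held the spaced pair of E-boxes. Such matches describe the letters of this stretch only.

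All 8 mRNAs were well expressed, and Creb3l3 had the highest level among them in all 6 libraries, between 141 and 248 FPKM. In CD total RNA the order was Creb3l3 at 192 FPKM, Bdh1 at 126 FPKM, Acat1 at 96.9 FPKM, Ppara at 57.2 FPKM, Fgf21 at 55.5 FPKM, Pdk4 at 36.3 FPKM, Vnn1 at 35.1 FPKM and Ucp2 at 15.5 FPKM. The counting intervals of neighbours in this order overlapped for Fgf21 and Pdk4 and for Pdk4 and Vnn1, and Ppara has no interval. In WD total RNA the order of the first 5 genes was the same, but the intervals of Creb3l3 and Bdh1 overlapped there, at 141 and 120 FPKM, as did those of Bdh1 and Acat1 at 114 FPKM. For 6 of the 8 genes the highest level of the 6 was in the CD heavy fraction, and the exceptions were Acat1, highest in WD total RNA, and Ucp2, highest in the CD light fraction. The share of all loci that were highest in the CD heavy fraction was not computed. Ucp2 stood apart in the CD heavy fraction, where it was at 0.972 FPKM.

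**Figure D1:**
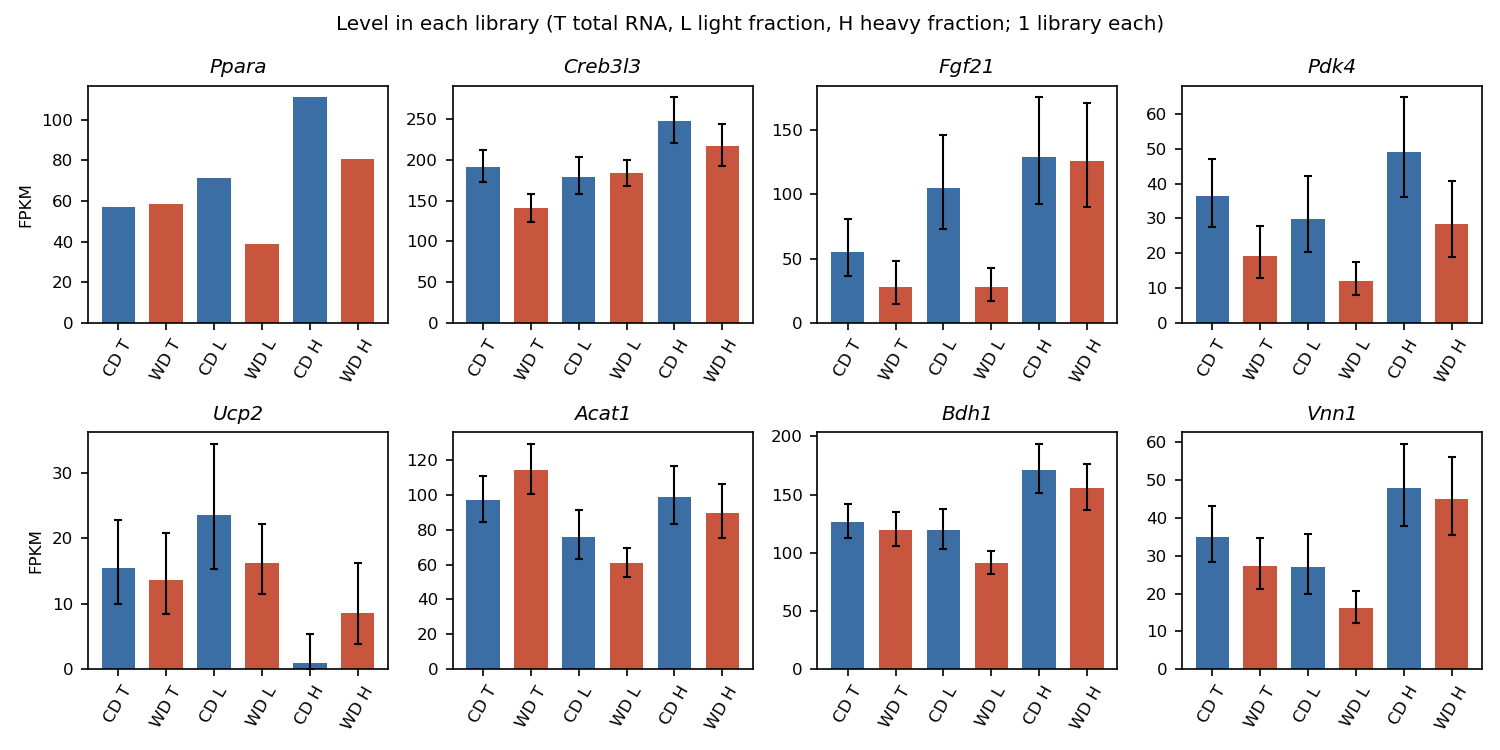
Level of each of the 8 mRNAs in FPKM (linear axes from 0) in the 6 libraries, CD in blue and WD in red, where T is total RNA, L the light and H the heavy fraction; error bars are 95% exact Poisson intervals of the inferred fragment number and cover counting error only (none for Ppara). Creb3l3 has the highest level throughout, Fgf21 is low in WD T and WD L but not in WD H, and Ucp2 is near 0 in CD H.

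In total RNA, 6 of the 8 mRNAs were lower in WD than in CD, as were 4796 of the 10201 loci. The lowest ratios of the 8 were those of Fgf21, Pdk4 and Creb3l3. These 3 of 8 genes had a ratio of at most 0.75, a share above the 22.7% of all loci, while 0 of 8 had a ratio of at least 1.5, against 17.7% of all loci. The counting interval lay below 1 for 2 of the 7 genes with fragment numbers, Pdk4 and Creb3l3, and above 1 for 0 of 7, where 5.69% and 5.57% of the 7502 loci with an interval did so. Shares given beside intervals below are likewise of loci with an interval. The median log2 change was -0.27 for the 8 genes and 0.02 for all loci. With all libraries rescaled to 1 sum, the ratio was at most 0.75 for 2 of 8 genes, Fgf21 and Pdk4, and the log2 change of Bdh1 turned from -0.08 to 0.02. Summed markers of other cells were higher in WD total RNA, by 1.33 times for endothelial cells (4 of 4 markers higher), 1.33 times for stellate cells (4 of 5) and 1.24 times for Kupffer cells and macrophages (8 of 10), while the hepatocyte sum was at 0.916 times CD. Their part in the lower levels was not tested. In whole liver, fewer cells of a type and less RNA per cell cannot be told apart. The wider bounds that Cufflinks gave with each FPKM value overlapped between the diets for every gene in total RNA and in both fractions, in 24 of 24 cases, as they did for 99.5% or more of all loci.

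The light fraction held the largest number of low ratios, with 5 of 8 genes (Fgf21, Pdk4, Ppara, Vnn1 and Ucp2) at or under 0.75, against 26.8% of all loci, and 0 of 8 had one of at least 1.5, against 25.9%. The interval lay below 1 for 4 of 7 genes (Fgf21, Pdk4, Vnn1 and Bdh1), against 10.9% of loci, and above 1 for 0 of 7, against 10.5%. With each library rescaled to the same sum, 7 of 8 genes had a light fraction ratio of at most 0.75, but so did 44.1% of all loci, with 17.4% at least 1.5. In the heavy fraction 5 genes had ratios between 0.876 and 0.976, while 2 of 8 (Pdk4 and Ppara) were at most 0.75, against 25.8% of all loci, and 1 of 8 (Ucp2) at least 1.5, against 21.7%. The interval there was below 1 for 1 of 7 genes (Pdk4) and above 1 for 1 of 7 (Ucp2), against 5.83% and 5.41% of loci.

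**Figure D2:**
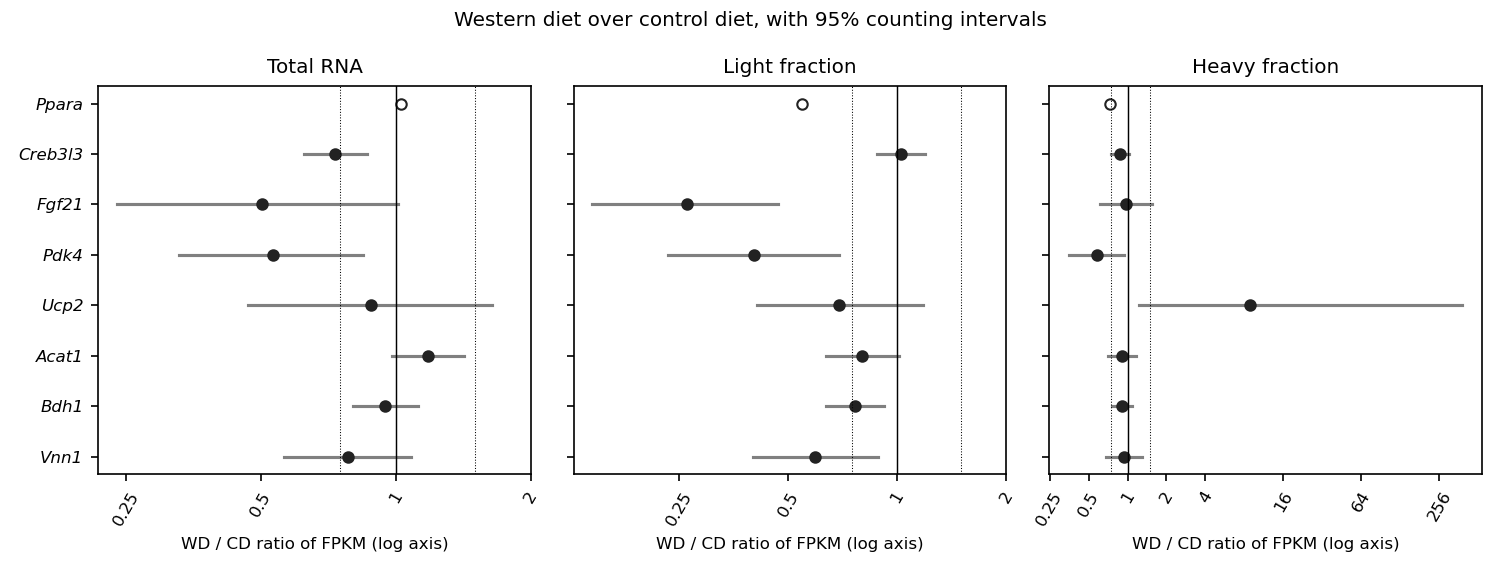
WD to CD ratio of FPKM for each mRNA (log axis) in total RNA, the light fraction and the heavy fraction; points are ratios of 1 library over 1 library, grey lines 95% counting intervals, open points Ppara without an interval, and dotted lines the ratios 0.75 and 1.5. Pdk4 has an interval below 1 in all 3 panels, Fgf21 lies at 0.263 in the light and at 0.976 in the heavy fraction, and the interval of Ucp2 in the heavy fraction runs from 1.22 to 385.

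Ppara (chromosome 7, 126619195 to 126681752 in Rnor_6.0), the receptor of the fasting response, had nearly the same level in total RNA of both diets, 57.2 FPKM in CD and 58.6 FPKM in WD. In the light fraction it was at 71.2 FPKM in CD and 38.8 FPKM in WD, a ratio of 0.545. In the heavy fraction it was at 111 FPKM in CD and 80.7 FPKM in WD, a ratio of 0.726. Both fractions were thus lower in WD while total RNA was not, and without fragment numbers no counting interval can be given for any of these ratios. Creb3l3 (chromosome 7, 11490851 to 11499282) was at 192 FPKM in CD and 141 FPKM in WD total RNA (378 and 265 fragments), a ratio of 0.733 (interval 0.624 to 0.860). Its levels were 180 and 184 FPKM in the light fraction and 248 and 217 FPKM in the heavy fraction, where the intervals of the ratio, 0.877 to 1.19 and 0.742 to 1.03, included 1. The lower Creb3l3 level in WD was thus beyond counting error only in total RNA. On this scale, the light fraction interval of Creb3l3 lay wholly above that of total RNA. With the libraries rescaled to the same sum, its light fraction log2 change moved from 0.03 to -0.32.

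Fgf21 (chromosome 1, 101595578 to 101596822), the liver hormone that PPARα, CREBH and ATF4 are known to induce, had unlike diet ratios in the light and heavy fractions. In total RNA it was at 55.5 FPKM in CD (27 fragments) and 27.9 FPKM in WD (13 fragments), a ratio of 0.503 whose interval, 0.238 to 1.01, just included 1. Its light fraction level was 105 FPKM in CD and 27.6 FPKM in WD (35 and 20 fragments), a ratio of 0.263 (0.144 to 0.468). Its heavy fraction level was 129 FPKM in CD and 126 FPKM in WD, with 40 fragments in each library, a ratio of 0.976 (0.614 to 1.55). The WD value was thus below CD beyond counting error in the light fraction, while the intervals for total RNA and the heavy fraction included 1. The heavy level was 2.33 times the total RNA level in CD and 4.51 times in WD. Among all loci compared, its log2 change in the light fraction, -1.92, was at percentile 2.14 and its change in total RNA, -0.99, at percentile 8.98.

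Pdk4 (chromosome 4, 30546663 to 30556814) encodes the kinase that shuts off pyruvate dehydrogenase and so spares glucose, and it was the one gene of the 7 with an interval below 1 in total RNA and in both fractions. It was at 36.3 FPKM in CD and 19.3 FPKM in WD total RNA (57 and 29 fragments), a ratio of 0.532 (0.328 to 0.846). In the light fraction it was at 29.8 and 12.0 FPKM (32 and 28 fragments), a ratio of 0.402 (0.233 to 0.690), and in the heavy fraction at 49.1 and 28.4 FPKM (49 and 29 fragments), a ratio of 0.578 (0.352 to 0.933). All 3 pairs of libraries had the lower value in WD. In total RNA, the intervals of its relatives Pdk2 and Pdk1 included 1. Pdk2 was at 47.9 FPKM in CD and 55.4 FPKM in WD total RNA (ratio 1.16, 0.793 to 1.69), and Pdk1, named here after its values were seen, at 19.7 and 21.2 FPKM (ratio 1.08, 0.638 to 1.83). In the light fraction, Pdk1 was at 47.3 FPKM in CD and 29.9 FPKM in WD, a ratio of 0.631 (0.434 to 0.924). An interval below 1 there was thus not particular to Pdk4. The light fraction ratio of Pdk2 was 1.06 (0.694 to 1.66). Pdk3, with a mean of 0.466 FPKM, was too low to compare. Of the 12 other genes of the pyruvate dehydrogenase complex and its regulators that could be compared, 3 had a total RNA ratio of at most 0.75 and 0 had one of at least 1.5, against 22.7% and 17.7% of all loci, the first share being near the background. None of the 9 with fragment numbers had a total RNA interval that left out 1. In the light fraction, 3 of the 9 had an interval below 1 and 0 had one above 1, against 10.9% and 10.5% of loci. The largest differences were those of the pyruvate carrier subunit Mpc1 (26.5 and 18.5 FPKM, ratio 0.697, 0.328 to 1.44) and of Pdpr (ratio 0.719, 0.398 to 1.28), a regulator of pyruvate dehydrogenase phosphatase.

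Ucp2 (chromosome 1, 165506360 to 165512744) encodes a carrier of the inner mitochondrial membrane, and in liver it is known to be expressed in Kupffer cells and, when fat accumulates, in hepatocytes. Its level in total RNA was 15.5 FPKM in CD and 13.6 FPKM in WD, with 25 and 21 fragments, and the interval of the ratio, 0.467 to 1.63, included 1. The light fraction held it at 23.5 FPKM in CD and 16.2 FPKM in WD, a ratio of 0.690 (0.409 to 1.18). In the heavy fraction it was at 0.972 FPKM in CD, which is 1 fragment, and at 8.54 FPKM in WD, which is 9 fragments, a ratio of 8.79 (1.22 to 385). The CD heavy library was thus low and the other 5 were between 8.54 and 23.5 FPKM. The interval is wide because it rests on that 1 fragment. The 10 markers of Kupffer cells and macrophages, all detected in every library, summed to 115 FPKM in CD and 142 FPKM in WD total RNA and to 165 and 202 FPKM in the heavy fraction, and were higher in WD for 8 of 10 and 7 of 10 markers. Their part in the Ucp2 values was not tested. The relatives Ucp1 and Ucp3, named after their values were seen, were listed at 0 in all 6 libraries. Of the 5 other mitochondrial carriers compared, Slc25a30, which encodes a kidney-type uncoupling protein relative, had the lowest total RNA ratio, at 90.4 FPKM in CD and 31.9 FPKM in WD (0.353, 0.256 to 0.480).

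The ratios of the ketone body enzyme mRNAs lay between 0.764 and 1.18. Acat1 (chromosome 8, 58166989 to 58195884), the first enzyme of ketogenesis and also the last of ketone body use, was at 96.9 FPKM in CD and 114 FPKM in WD total RNA (220 and 248 fragments), a ratio of 1.18 (0.979 to 1.42). It was at 76.0 and 60.8 FPKM in the light fraction (ratio 0.799, 0.634 to 1.01) and at 99.0 and 89.9 FPKM in the heavy fraction (ratio 0.908, 0.712 to 1.16). None of the 3 intervals left out 1. Bdh1 (chromosome 11, 72578532 to 72614176), which interconverts acetoacetate and β-hydroxybutyrate, was at 126 and 120 FPKM in total RNA (298 and 270 fragments), a ratio of 0.947 (0.80 to 1.12). Its light fraction level was 119 FPKM in CD and 91.1 FPKM in WD, a ratio of 0.764 (0.637 to 0.919), and its heavy fraction levels were 171 and 156 FPKM, a ratio of 0.908 (0.758 to 1.09). The light fraction of Bdh1 was the one place where an interval of these enzymes lay below 1.

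Other ketone body genes were measured as well. Slc16a1, which encodes the monocarboxylate carrier that exports ketone bodies, was at 51.6 and 46.4 FPKM in total RNA (ratio 0.898, 0.695 to 1.16). Sirt3, a mitochondrial deacetylase gene, had 10 and 18 fragments (ratio 1.88, 0.824 to 4.56), and neither interval left out 1. Among 5 other thiolases, the relatives of Acat1, 0 had a total RNA ratio past either limit. The shares of all loci were 22.7% at most 0.75 and 17.7% at least 1.5. Acat2, 1 of the 5, was at 0 FPKM in both total RNA libraries and so could not pass a limit.

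Vnn1 (chromosome 1, 22614782 to 22625204) encodes vanin-1, a pantetheinase that is a known target of PPARα. It was at 35.1 FPKM in CD and 27.4 FPKM in WD total RNA (91 and 68 fragments), a ratio of 0.781 (0.562 to 1.08). Light fraction levels were 27.0 and 16.1 FPKM (48 and 62 fragments), a ratio of 0.594 (0.401 to 0.885), and heavy fraction levels were 47.8 and 44.9 FPKM (79 and 76 fragments), a ratio of 0.939 (0.676 to 1.30). WD was below CD in all 3 pairs, by an amount beyond counting error only in the light fraction. Its relative Vnn3 was at 9.37 and 8.07 FPKM in total RNA (ratio 0.861, 0.393 to 1.86). In contrast to Vnn1, Vnn3 was higher in the light fraction of WD, at 2.42 and 10.0 FPKM (3 and 27 fragments, ratio 4.14, 1.27 to 21.3), and its density change was 0.206 (0.0344 to 0.929). Of 15 other genes of vanins and coenzyme A synthesis, 7 had a total RNA ratio of at most 0.75 and 1 of at least 1.5, against 22.7% and 17.7% of all loci. With fragment numbers, 1 of 14 had an interval below 1 and 2 had one above 1, against 5.69% and 5.57% of loci. The gene with the ratio of at least 1.5 was Ppcs, phosphopantothenoylcysteine synthetase, with 11 and 29 fragments (ratio 2.76, 1.34 to 6.12).

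Ribosome density is taken here as the heavy to light ratio of FPKM. FPKM is relative to the other mRNAs of a library, so this ratio is not the share of an mRNA in each fraction. In CD, for example, Fgf21 was at 2.33 times its total RNA level in the heavy and at 1.90 times in the light fraction. In CD, 3 of 8 genes (Ppara, Pdk4 and Vnn1) had a heavy to light ratio of at least 1.5 and 1 of 8 (Ucp2) one of at most 0.75, against 32.9% and 36.6% of all loci. In WD, 5 of 8 genes (Fgf21, Vnn1, Pdk4, Ppara and Bdh1) had a ratio of at least 1.5 and 1 of 8 (Ucp2) one of at most 0.75, against 31.4% and 38.5% of all loci. On the scale rescaled to the same sum, 40.2% of all loci were at least 1.5 in WD and 32.0% at most 0.75, with 6 of 8 genes at least 1.5. Fgf21 stood at 1.23 in CD (0.760 to 1.99) and at 4.56 in WD (2.60 to 8.23), and its WD density was above that of 95.6% of loci. Ucp2 stood at 0.0413 in CD (0.00101 to 0.251) and at 0.526 in WD (0.224 to 1.10), so it was the one gene of the 8 with a lower level in the heavy than in the light fraction in both diets. Vnn1 stood at 1.77 (1.22 to 2.59) and 2.79 (1.97 to 3.97), and Pdk4 at 1.64 (1.03 to 2.65) and 2.36 (1.36 to 4.12). The remaining genes lay between 1.18 and 2.08 in both diets.

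**Figure D3:**
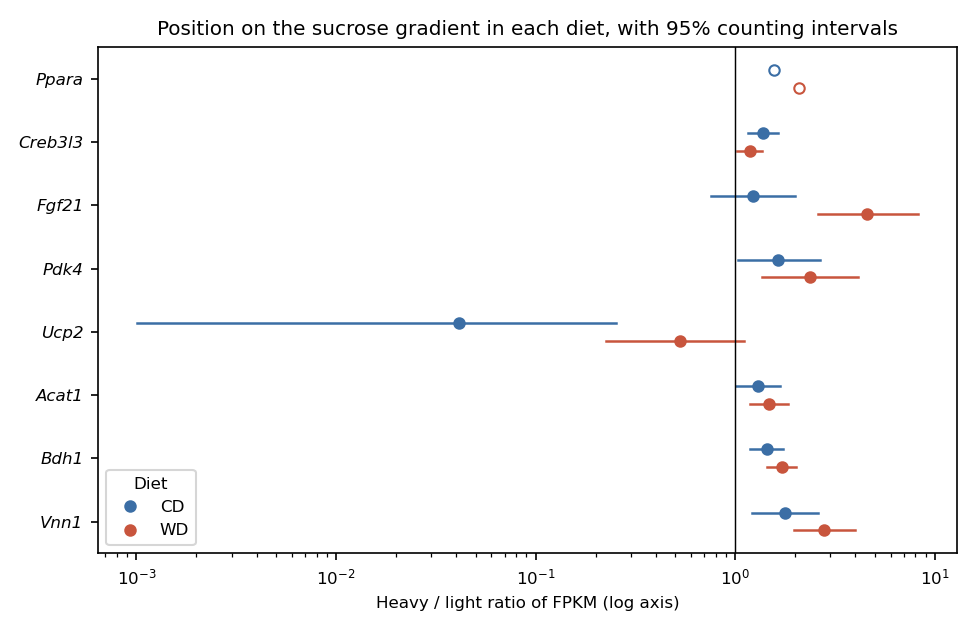
Heavy to light ratio of FPKM (log axis) of each mRNA in CD (blue) and WD (red), 1 library over 1 library; lines are 95% counting intervals and open points are Ppara, which has none. The intervals of CD and WD do not overlap for Fgf21, at 1.23 and 4.56, and overlap narrowly for Ucp2, at 0.0413 and 0.526. Vnn1, at 1.77 and 2.79, and the other genes with intervals have overlapping ones.

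The change in ribosome density uses the same 4 fraction libraries as the ratios above, so it is not separate evidence. The density was higher in WD for 7 of 8 genes and for 5029 of the 10201 loci. The median log2 change was 0.47 for the 8 genes and -0.02 for all loci. A change of at least 1.5 was found for 3 of 8 genes (Ucp2, Fgf21 and Vnn1), against 27.7% of all loci, and of at most 0.75 for 0 of 8, against 36.1%. The interval lay above 1 for 2 of 7 genes, Fgf21 with 3.71 (1.74 to 8.0) and Ucp2 with 12.7 (1.57 to 579), against 7.39% of loci, and below 1 for 0 of 7, against 6.62%. For Vnn1 the change was 1.58 (0.939 to 2.66) and for Pdk4 1.44 (0.685 to 3.01), both within counting error. Creb3l3 alone had a lower density in WD, with 0.857 (0.682 to 1.08). With the libraries rescaled to the same sum, 5 of 8 genes had a change of at least 1.5, but the share of all loci also rose to 37.9%, with 27.2% at most 0.75, and the log2 change of Creb3l3 turned from -0.22 to 0.11. With the heavy fraction set over total RNA instead of over the light fraction, the log2 change was 3.20 for Ucp2, 0.95 for Fgf21 and 0.26 for Vnn1. Its direction then turned for Ppara (-0.50), Acat1 (-0.38), Bdh1 (-0.06) and Creb3l3 (0.26).

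Other genes of fatty acid use had density changes in both directions. Among PPARα target genes, Fabp1, the liver fatty acid binding protein gene, was at 0.458 (0.400 to 0.524) and Acadm, medium-chain acyl-CoA dehydrogenase, at 0.502 (0.374 to 0.674), and the desaturase gene Fads2 was at 1.86 (1.45 to 2.37).

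Known PPARα target genes other than the 8 were mostly lower in WD total RNA. This list, too, was chosen with earlier results of these data known. Of 42 listed, 36 were found and 35 compared. Ratios were at or under 0.75 for 14 of the 35, against 22.7% of all loci, and reached 1.5 for 0 of the 35, against 17.7%. The level was lower in WD for 27 and higher for 8, where 4796 of the 10201 loci were lower and 5214 higher. The median log2 change was -0.29, against 0.02 for all loci. The interval lay below 1 for 10 and above 1 for 1 of the 26 with fragment numbers, against 5.69% and 5.57% of loci. The largest changes were those of the acyl-CoA thioesterases Acot3 (8 and 2 fragments, ratio 0.261, 0.027 to 1.31) and Acot2 (25 and 10 fragments, 0.418, 0.179 to 0.902), which are close relatives, so that reads may be shared between them. Fads2 was at 131 FPKM in CD and 65.5 FPKM in WD (0.502, 0.381 to 0.655). Cyp4a1, a fatty acid ω-hydroxylase and a classic PPARα target, was at 403 and 204 FPKM (0.507, no interval), and Ehhadh, the peroxisomal bifunctional enzyme, at 298 and 179 FPKM (0.601, 0.541 to 0.667). In density this list was split, with 5 of 35 genes at least 1.5 and 10 at most 0.75, against 27.7% and 36.1% of all loci. The 17 partners and cofactors of PPARα that were compared held 1 gene past each limit in total RNA, Rxrb at 5.64 and 12.1 FPKM and the coactivator Ppargc1b at 3.26 and 1.79 FPKM, both without an interval.

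**Figure D4:**
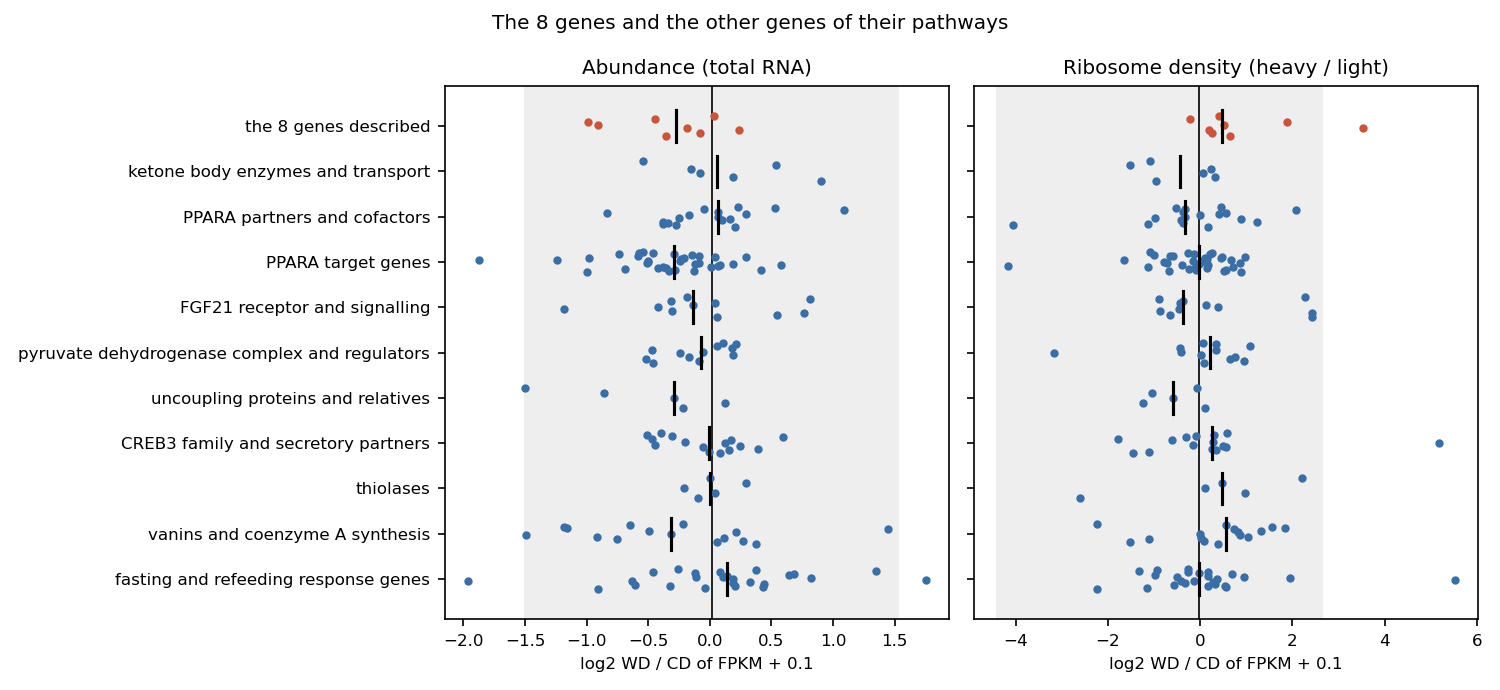
log2 WD to CD change of FPKM + 0.1 in total RNA (left) and in ribosome density (right) for the 8 genes (red) and for the other genes of each list (blue), 1 point a gene; short black bars are list medians, the long line the median of all 10201 loci and the grey band their 5th to 95th percentile. In total RNA the PPARα target genes have a median of -0.29 and the 8 genes one of -0.27, while the ketone body list has one of 0.06.

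The receptor side of FGF21 was also measured. Klb, which encodes the coreceptor β-klotho, was at 18.8 FPKM in CD and 16.6 FPKM in WD total RNA (0.880, 0.423 to 1.81). Its light fraction held 17.4 and 5.34 FPKM and its heavy fraction 20.3 and 30.4 FPKM, a density change of 4.90 (1.37 to 17.8) from 8 to 20 fragments a library. Dusp6, a phosphatase that is induced by and curbs FGF receptor signalling through ERK, was at 49.0 FPKM in CD and 21.5 FPKM in WD total RNA (143 and 60 fragments, 0.439, 0.319 to 0.597). Of the 11 genes of this list that were compared, 2 had a total RNA ratio of at least 1.5 and 2 of at most 0.75, near the 17.7% and 22.7% of all loci. Dusp6 was the 1 of 5 with fragment numbers whose interval left out 1, and 5.69% of loci had an interval below 1. Among the relatives and secretory partners of Creb3l3, 15 were compared, with 1 at least 1.5 (Creb3l4, 29 and 42 fragments, 1.51, 0.921 to 2.52) and 3 at most 0.75, both under the shares of all loci. Apoa5, an apolipoprotein gene that CREBH is known to induce, was at 127 and 135 FPKM (1.06, 0.887 to 1.26) in total RNA. Its light fraction levels were 45.6 and 121 FPKM (2.64, 2.02 to 3.51) and its density change was 0.366 (0.259 to 0.515). The stress sensor gene Atf6 was at 20.1 and 14.5 FPKM in total RNA (0.721, 0.525 to 0.985). Intervals in total RNA lay above 1 for 2 and below 1 for 1 of the 10 with fragment numbers, against 5.57% and 5.69% of loci. Those above were Apcs (1.19, 1.05 to 1.35) and Apoa4 (1.12, 1.03 to 1.21), named after their values were seen, and that below was Atf6.

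Other genes known to respond to fasting and refeeding were split in direction. Of 25 compared, 15 were higher and 10 lower in WD total RNA, where 5214 of the 10201 loci were higher and 4796 lower. A ratio of at least 1.5 was found for 5 and of at most 0.75 for 5, near the 17.7% and 22.7% of all loci. The median log2 change was 0.14, against 0.02 for all loci. Trib3, a pseudokinase gene induced by ATF4, was at 10.6 and 2.64 FPKM from 21 and 5 fragments (0.249, 0.0733 to 0.678). Asns, asparagine synthetase and another ATF4 target, was at 3.38 and 6.06 FPKM, and Igfbp1, an insulin-repressed binding protein gene, had 4 and 10 fragments (2.61, 0.754 to 11.4). These genes were at low levels, and Asns has no interval.

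The loci whose level over the 6 libraries was most like that of each gene were found by Pearson's r of log2 FPKM + 0.1 among 3908 loci that have their own symbol and reach 10 FPKM on average. The 6 points of such an r are the 6 libraries and share their depth and scale, so it is a description only. Vnn1 was most like Gpd1, which encodes glycerol-3-phosphate dehydrogenase (r = 0.999), with Gpd1 at 309 and 254 FPKM in total RNA of CD and WD, 257 and 165 FPKM in the light and 422 and 399 FPKM in the heavy fraction. Fgf21 was most like Pcmt1 (r = 0.990) and Spink1 (r = 0.987), and Spink1, a secreted trypsin inhibitor gene, was at 28.8 and 3.31 FPKM in the light and 46.4 and 52.8 FPKM in the heavy fraction. Ucp2 was most like Reg4 (r = 0.994) and Riok3 (r = 0.992), with Reg4 listed at 0 in the CD heavy fraction and at 4.92 FPKM in the WD heavy fraction. Bdh1 was most like Nipsnap1 and Sun2, Acat1 like Asgr2 and Cd5l, Ppara like Mrpl49 and Pdxk, Creb3l3 like Dcaf13 and Gga2, and Pdk4 like Thoc6 and Dgkd, with r between 0.965 and 0.995. No other of the 8 genes was among the 2 loci most like any one of them.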

How the data were processed

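Total RNA and the light and heavy gradient fractions of CD and WD livers were measured in 6 libraries, 1 per group. After depletion of ribosomal RNA, the authors used TopHat against Rnor_6.0 and deposited FPKM values with bounds, made with the Cufflinks 2.2.1 pipeline and Cuffnorm (processing notes and paper's methods), which set a common scale for the libraries. The methods also describe a Riboseq route, in which reads matching ribosomal RNA are discarded and perfect matches kept, and whether it was used for the fractions is not clear from them, which bears on the heavy fraction over total RNA. The annotation release is not given in the sources used here. Libraries were grouped by their labels. From the deposited FPKM values, ratios, log2 changes with a pseudocount of 0.1 FPKM and counts of ratios of at least 1.5 or at most 0.75 (the study's limits for ribosome density, there written for CD against WD) were computed in Python 3.11.15 with pandas 2.3.3, numpy 2.4.6 and scipy 1.17.1, and figures with matplotlib 3.10.9. Loci were compared where named, estimated without failure and, averaged over the libraries, at 1 FPKM or more. Whole fragment numbers (tolerance 0.0012%) were found for 76.5% of 12460 loci above 0 in at least 2 libraries and for 0.9% of 2000 loci after a jitter of 1%. Common multiples of these numbers fit the same FPKM values and would narrow the intervals. The inference and the intervals were tested on simulated data. Of each of 10 gene lists, the up to 5 genes with the largest change in abundance or density could be named, and some of these are not described. The 8 genes and the lists were chosen with earlier results of these data known. Alternatives were other pseudocounts, filters and scales, summed repeated symbols and the heavy fraction over total RNA. Values of some genes of these lists are not reported here. Markers of endothelial, stellate and muscle cells were also summed. Summed endothelial markers were between 48.7 and 70.9 FPKM, summed stellate markers between 30.9 and 58.8 FPKM, and muscle markers at 0 in 5 libraries and at 0.244 FPKM in the CD heavy fraction.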

Additional observations from a re-analysis of the deposited data

Results flagged for a closer look

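Ucp2 had opposite directions in the fractions, with a log2 WD to CD change of -0.53 in the light and of 3.01 in the heavy fraction. With 1 library per group the difference between these changes was not tested. The heavy value rests on 1 fragment in CD and 9 in WD.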

How the results depend on the processing

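With 1 library per group no replicate could be left out. No paired analysis was possible because no group has a second library. Among the alternatives, the filters and the summing of repeated symbols could not change any value of the 8 genes. Each gene passed every filter and has 1 locus, so the repeats under these settings, counted in the totals below, are no check. Of 55 repeats of the 6 counts of genes past a limit under the alternatives, 54 stayed within 1.5 times the value reported. The exception was the rescaling of each library to the same sum, under which the number of genes with a density change past a limit was 5 and not 3. Of 440 repeats of single values, 8 left the counting interval of the value reported (for Ppara, a range of 1.5 times either way), 5 under that rescaling and 3 with the heavy fraction over total RNA, and the cause was not tested. A filter of at least 10 FPKM, which all 8 genes passed, left 4069 loci and lowered the shares of all loci in total RNA to 8.77% at least 1.5 and 16.2% at most 0.75 (357 and 659 loci, against 1804 and 2311). Depth limits Ucp2 and Fgf21 most, whose total RNA libraries held 13 to 27 fragments.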
